A study of Rattus norvegicus with 24 samples.

Results

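The comparison described here is the difference between birth induced with oxytocin and the saline control, averaged over the titled sexes, in the medial prefrontal cortex of rat offspring. It uses all 24 libraries of the series, chosen by their titles: 12 titled oxytocin and 12 titled saline, with the titled sex as a covariate. The animals were Sprague Dawley rats at postnatal day 45, and the labels give no further allele or agent. The 4 titled groups of 6 were saline females, oxytocin females, saline males and oxytocin males. RNA came from both hemispheres and was selected with oligo-dT. The labels name neither the litter nor the dam, so littermates would count as separate replicates, and where samples share a litter the p-values are too small. The labels also do not say whether the saline group had its labour started in another way.

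The names of the deposited files contradict the titles. In 24 of 24 libraries the file name gave the other treatment, and in 24 of 24 it gave the other sex. Every direction below follows the titles. Under the file names the 12 libraries called oxytocin here are the saline libraries, so each gene written as higher in oxytocin is lower in oxytocin and each fold change keeps its size with its sign turned. The averaged difference uses the same libraries on each side under either naming. Which naming of the treatment is right was not settled, since 0 of 32883 gene IDs matched a name and the files hold no marker of the treatment itself. The file names turn sex and treatment together, so the genes restricted to 1 titled sex, given below with the depth, bear on the treatment as well if a single reversal of the list lies behind both. In the same way the tissue could not be checked against marker genes, and the lists of cell type and pathway genes could not be tested.

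Oxytocin is a peptide hormone made in the hypothalamus. It contracts the uterus during labour, and its synthetic form is given to start or strengthen labour. It acts through the oxytocin receptor, a receptor coupled to G proteins that is also present in the brain. The medial prefrontal cortex takes part in executive control, fear extinction and social behaviour, and it is still maturing in juvenile rats. Bulk tissue mixes neurons, glia and vascular cells. In such samples fewer cells of a type and less RNA per cell cannot be told apart.

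The libraries were of similar depth, from 15.9 to 24.3 M estimated reads with a median of 18.9 M. Titled oxytocin libraries held 18.4 ± 1.99 M reads and titled saline libraries 19.99 ± 2.21 M (SD, n = 12 each; permutation test within titled sex, two-sided p = 0.0853). Between 13672 and 13948 genes reached a level of 1 CPM, the reads of a gene scaled to the library total, in a library. A count of 0 allows up to 3 reads, which is 0.123 to 0.189 CPM depending on the library, and covers counting error only. For the sexes, 4 genes held at least 100 reads in every titled female library and at most 3 in every titled male library, and 1 gene showed the reverse. These genes part the libraries into the same 2 sets of 12 under either naming. As background, males express genes of the Y chromosome that females lack, while Xist, the RNA that silences an X chromosome, is expressed in females. More genes were thus restricted to the titled females than to the titled males, the order that Y-linked genes would give if the file names held the right sex. The genes have no names here, so this was not tested.

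Averaged over the titled sexes, the treatment difference was small and spread over many genes. Of 14930 tested genes, 44 were called at an adjusted p of at most 0.05 (edgeR's quasi-likelihood test, Benjamini-Hochberg adjustment), which is 0.295%. Among them 27 were higher in titled oxytocin libraries (0.181% of the tested genes) and 17 were lower (0.114%). The higher genes had a median log2 fold change of 0.23 and the lower genes one of −0.23, while the median over all tested genes was −0.0001. The size of the change ran from 0.11 to 2.13 on the log2 scale. Changes under 1.2-fold made up 29 of the 44 calls, 18 higher and 11 lower. IDs are printed for the 2 calls of smallest p in each direction.

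Beyond the calls, 2362 genes (15.8%) had an unadjusted p under 0.05, 1285 of them higher and 1077 lower. Their median change was 0.14 on the log2 scale, against 0.06 over all tested genes. The adjusted p of the calls reached up to 0.0470, the next gene had 0.0505, and 254 genes lay between 0.05 and 0.1. The threshold therefore ran through a dense part of the ranking, visible in the plot of fold change against p.

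**Figure D1:**
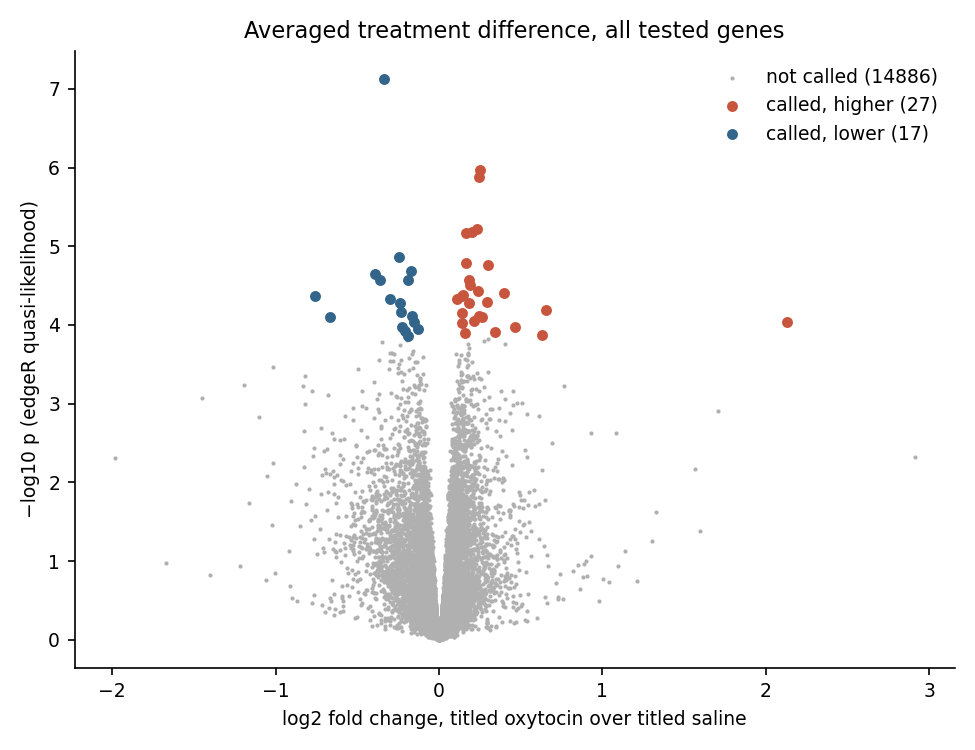
Each point is 1 of 14930 tested genes, with its log2 fold change between titled oxytocin and titled saline on the x axis and −log10 of its edgeR p on the y axis. The 27 genes called higher and 17 called lower are coloured, and most of them lie close to a fold change of 0.

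The gene of smallest p was ENSRNOG00000018414, which fell. In titled saline libraries its level ran from 84.5 CPM (median 87.0) to 98.7 CPM in females and from 89.4 (median 96.1) to 106 CPM in males. In titled oxytocin libraries it ran from 60.5 (median 65.1) to 78.0 CPM in females and from 73.9 (median 81.4) to 89.4 CPM in males. All 12 oxytocin libraries lay below the saline median, and 10 of them lay below every saline library. The exceptions were oxytocin male 1 at 84.8 CPM and oxytocin male 5 at 89.4 CPM. The log2 fold change was −0.33 (SE 0.05, edgeR adjusted p = 0.00111), a level lower by a factor of 0.793. Of the 72 pairs of an oxytocin and a saline library of the same titled sex, oxytocin was the higher in 1.

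ENSRNOG00000013391 was the most abundant of the 4 genes named here relative to its length, at 84.1 ± 11 TPM (SD, n = 24; reads per length, scaled to a fixed library sum), above 87.4% of the tested genes. It rose. Titled saline libraries ran from 235 (median 272) to 309 CPM in females and from 257 (median 294) to 317 CPM in males. Titled oxytocin libraries ran from 307 (median 312) to 339 CPM in females and from 319 (median 355) to 393 CPM in males. All 12 oxytocin libraries were above the saline median, and 8 were above every saline library, 6 of them titled male. The log2 fold change was 0.25 (SE 0.04, edgeR adjusted p = 0.00655), and oxytocin was the higher in 69 of 72 same-sex pairs. The 12 and 12 libraries overlapped through oxytocin female 1, 2, 3 and 4, which lay between 307 and 316 CPM, under the highest saline library.

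ENSRNOG00000025527 rose by a similar factor of 1.18 from a lower level, with a mean of 24.2 ± 2.73 TPM (SD, n = 24). Titled saline libraries ran from 96.4 (median 110) to 117 CPM in females and from 93.2 (median 98.6) to 115 CPM in males. Titled oxytocin libraries ran from 116 (median 126) to 137 CPM in females and from 114 (median 125) to 130 CPM in males. Here 9 of 12 oxytocin libraries were above every saline library, and all 12 were above the saline median. The log2 fold change was 0.24 (SE 0.04, edgeR adjusted p = 0.00655), with oxytocin higher in 70 of 72 same-sex pairs. The call ended, at an adjusted p of 0.0685 and a log2 fold change of 0.20, once each library's trend with gene length was removed, an alternative described below.

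ENSRNOG00000031312 fell from a low level, with a mean of 7.58 ± 0.975 TPM (SD, n = 24) and 131 to 274 reads per library. Titled saline libraries ran from 8.95 (median 10.2) to 11.7 CPM in females and from 10.4 (median 11.6) to 12.2 CPM in males. Titled oxytocin libraries ran from 8.03 (median 8.55) to 9.40 CPM in females and from 9.01 (median 10.01) to 10.3 CPM in males. All 12 oxytocin libraries were below the saline median and 5, all titled female, were below every saline library. Within titled males every oxytocin library lay below every saline library, and within titled females the libraries overlapped. The log2 fold change was −0.24 (SE 0.05, edgeR adjusted p = 0.0284). Without saline female 1 and 5 together the adjusted p was 0.0637 at a log2 fold change of −0.21.

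**Figure D2:**
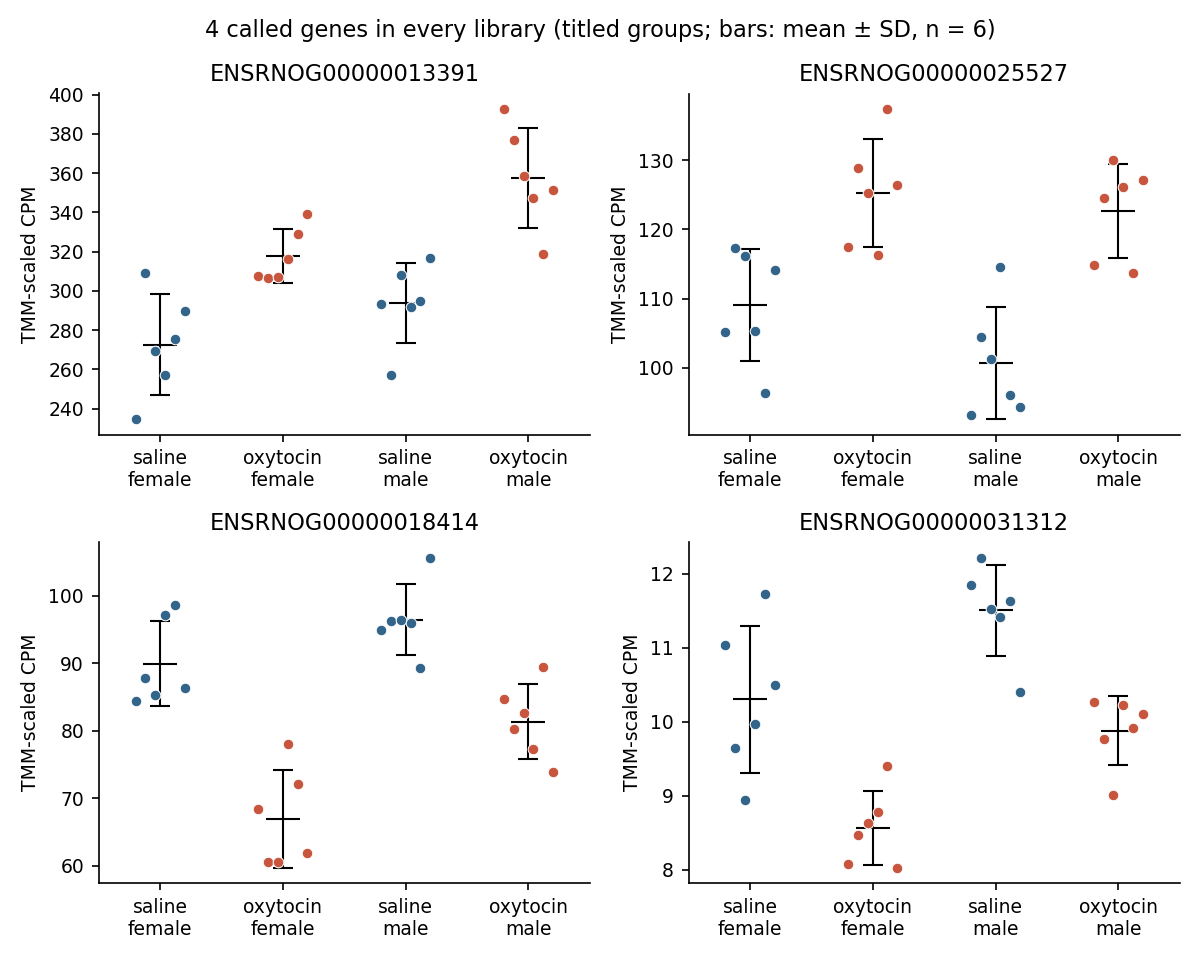
TMM-scaled CPM of the 4 genes (y axis, not starting at 0) in each of the 24 libraries, by titled group, with the mean and SD of 6 libraries. The upper genes were higher and the lower genes were lower in titled oxytocin libraries of both titled sexes, with overlapping libraries.

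The estimated counts of these 4 genes were whole in every library. Of the 44 called genes, 8 had counts that were not whole in at least 1 library (18.2%, against 18.7% of all tested genes), and 6 had them in every library. Reads of those 8 genes may be shared with similar genes, and their values are less certain. The treatment difference of the 4 named genes was also compared between the titled sexes through the interaction in edgeR. Their adjusted p lay between 0.662 and 0.967, and their unadjusted p between 0.0425 (ENSRNOG00000018414) and 0.72. Over all tested genes the interaction called 0 in edgeR (smallest adjusted p = 0.426), with 1089 of 14930 at an unadjusted p under 0.05.

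No gene separated the 12 oxytocin from the 12 saline libraries. The count without overlap was 0 of 44 called genes and 0 of 14930 tested genes, or 0%. Among the called genes the direction of the fold change held in 62 to 71 of 72 same-sex pairs, with a median of 66, where the median over all tested genes was 44. The called genes were selected for this difference, so the higher figure is a description.

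Among the calls, larger changes sat in genes of low level. The 5 calls of at least 1.5-fold, 3 higher and 2 lower, had levels of 0.792 to 13.0 CPM with a median of 2.46. The 10 calls from 1.2-fold to under 1.5-fold, 6 higher and 4 lower, had a median of 20.9 CPM. The 29 calls under 1.2-fold had a median of 80.2 CPM. The threshold itself selects for this order, since a gene of few reads passes it only with a large estimate. Over all tested genes, in 4 equal classes by mean TPM, the median size of the log2 fold change was 0.125 in the lowest class. In the highest class it was 0.041. The order among the calls is therefore a description. A single call reached the 2-fold limit that the series' design text names (0.0067% of the tested genes). It was higher in titled oxytocin libraries, with a log2 fold change of 2.13 (SE 0.46, edgeR adjusted p = 0.0393). Its counts were small. Titled saline libraries held 1 to 13 reads (median 3) in females and 2 to 19 (median 3) in males, and titled oxytocin libraries 3 to 31 (median 10.5) in females and 9 to 59 (median 25.5) in males. In 7 of 12 saline and 2 of 12 oxytocin libraries it was at 3 or fewer reads. The filter asks for about 10 reads in 6 libraries. Without its level in titled oxytocin libraries the gene would not have been tested, so its call is a description. With a filter of 1 CPM in 12 libraries no call reached 2-fold. The gene was called in 8 of the 24 fits that left out 1 library.

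Gene length went with the direction of change. The deposited tables give each gene a length in bases, and the higher calls had a median length of 5162 bases (from 1498 to 11571), the lower calls one of 1407 bases (from 552 to 4302), and all tested genes one of 2202 bases. In the shortest of 4 equal classes of tested genes, 0 of 9 calls were higher, while in the longest class 19 of 22 were. The same held in weaker form over all tested genes. Of the shortest class 39.3% had a fold change above 0, then 46.1%, 53.4% and 61.0% in the longest, with medians of −0.022, −0.007, 0.006 and 0.023 on the log2 scale. The share of genes at an unadjusted p under 0.05 was 12.3% in the shortest and 22.9% in the longest class. This share also rose with level, from 10.9% in the lowest to 20.8% in the highest of 4 equal classes by mean TPM. The median size of the log2 fold change was 0.065 in the shortest and 0.064 in the longest length class. The share therefore does not show larger changes in longer genes, and length was not tested apart from read number.

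**Figure D3:**
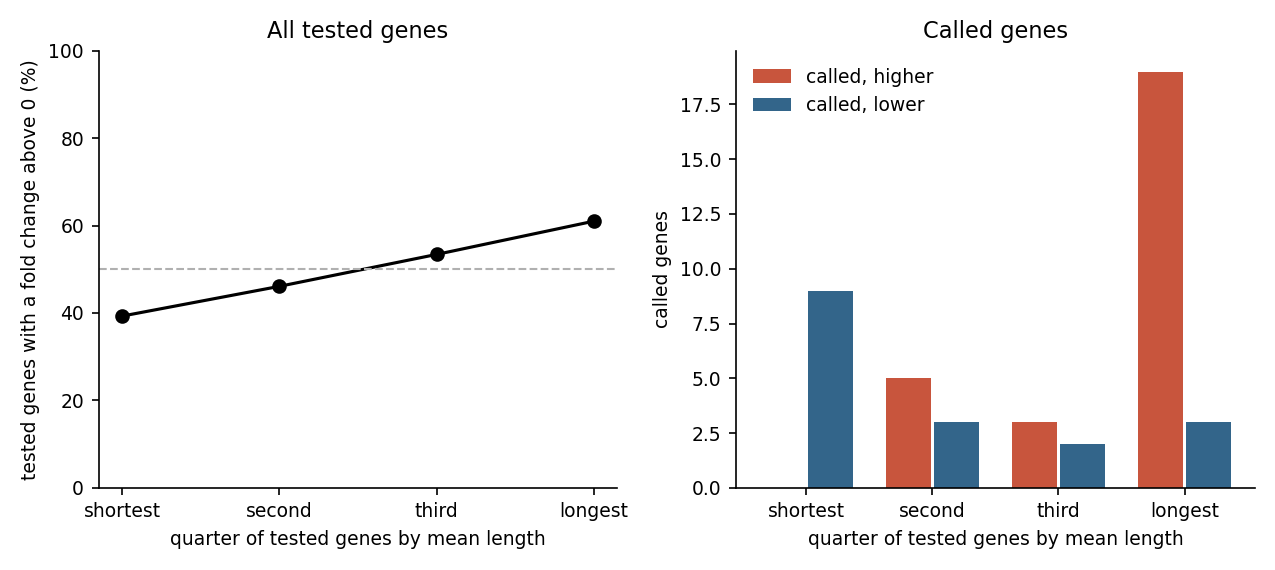
Left, the percentage of tested genes whose fold change was above 0 in 4 equal classes by mean gene length, rising from 39.3% in the shortest to 61.0% in the longest. Right, the number of called genes in each class, with 0 higher and 9 lower in the shortest and 19 higher and 3 lower in the longest.

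The same trend was then expressed for each library, which restates it and is no second observation. For each library the slope of log2 CPM on log2 gene length was taken over all tested genes, after removal of the mean of its titled sex. A slope of 0 is therefore the average of the titled sex, and the treatment means mirror each other by construction. Titled oxytocin libraries had slopes of 0.00883 ± 0.0199 and titled saline libraries of −0.00883 ± 0.0254 per doubling of length (SD, n = 12 each), a difference of 0.0177 that did not exceed the spread (permutation test within titled sex, two-sided p = 0.0739). Slopes were above 0 in 9 of 12 oxytocin and 3 of 12 saline libraries, and they ran from −0.0313 to 0.0428 and from −0.0687 to 0.0260. The lowest value belonged to saline female 1. Without it the difference was 0.0122, the lowest over the 24 libraries left out in turn.

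**Figure D4:**
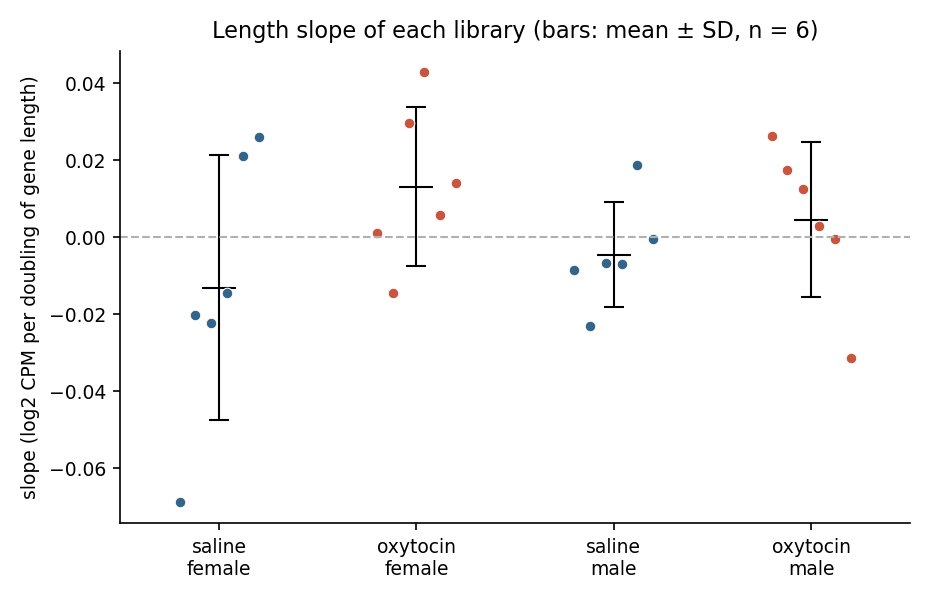
Slope of log2 CPM per doubling of gene length (y axis) in each library, by titled group, with the mean and SD of 6 libraries. Titled-sex means were removed first, so a slope of 0 is the average of the titled sex. Slopes above 0 were found in 9 of 12 oxytocin and 3 of 12 saline libraries, and saline female 1 lay lowest at −0.0687.

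When each library's length trend was removed through offsets, an alternative chosen after the trend had been seen, 53 genes were called. The split turned from 27 higher and 17 lower (61.4% higher) to 21 higher and 32 lower (39.6% higher). Of the 44 calls, 30 were shared, 16 higher and 14 lower. All 44, selected on the same libraries, kept the sign of their fold change. The lists called in this fit had median lengths of 2574 bases for the higher and 3233 bases for the lower genes. Loss of the earlier length difference is built into the removal of the trend, so it is no test of it. ENSRNOG00000018414 kept its call at a log2 fold change of −0.35 (adjusted p = 0.000307), ENSRNOG00000013391 at 0.22 (adjusted p = 0.0127) and ENSRNOG00000031312 at −0.24 (adjusted p = 0.0251). Removing the trend also removes any treatment difference that follows length, and the part of the length trend in the calls was not otherwise tested.

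The length column offered a further readout. It differed between libraries in 3999 of the tested genes, and what sets it per library is not given in the sources used here. Its log2 value was compared between treatments with limma, with the titled sex as a covariate. A single gene was called (0.0250%; adjusted p = 0.0444). Its length was 1261 ± 7.63 bases in titled oxytocin and 1244 ± 7.60 bases in titled saline libraries (SD, n = 12 each), a difference of 1.35%. At an unadjusted p under 0.05 the lengths gave 215 genes (5.38%) and the read counts 15.8% of theirs.

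The libraries varied along many axes, and the first 4 principal components, taken after removal of titled-sex means, held 8.33%, 7.78%, 6.93% and 5.90% of the variance. Component 2 differed between the treatments, at 5.86 ± 8.21 in titled oxytocin and −5.86 ± 9.77 in titled saline libraries (SD, n = 12 each; permutation test within titled sex, two-sided p = 0.00441, adjusted p = 0.0176 over 4 tests). On it 11 of 12 oxytocin libraries lay above the saline median, and the exception was oxytocin female 4 at −8.25. Components 1 and 3 differed by 8.19 and 8.00 (adjusted p = 0.0956 each in the same permutation test) and component 4 by 0.187 (adjusted p = 0.963). Saline female 1 lay farthest out on component 1, at −31.3, and saline female 5 on component 2, at −24.5. With only the 2000 genes of largest variance the difference on component 2 was 8.67 (adjusted p = 0.0509), and its call ended.

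The number of called genes depended on single libraries. Leaving out each of the 24 in turn gave 12 to 341 calls, with a median of 27.5, and 17 of the 24 counts lay more than 1.5 times from 44. The count rose to 341 without saline female 2, the deepest library, to 126 without saline female 6 and to 116 without oxytocin male 5. All 44 genes were among the calls in those fits. It fell to 12 without oxytocin female 3, to 17 without saline female 4 or oxytocin male 4, to 19 without oxytocin female 5 or saline male 1, and to 20 without oxytocin male 2. It was 21 without saline male 3, 23 without oxytocin male 3, 24 without saline male 2, 25 without oxytocin female 2 or saline male 6, 26 without oxytocin male 1, and 29 without saline female 1 or saline female 5. Without saline female 1 and 5 together 4 genes were called, 3 higher and 1 lower, all among the 44.

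**Figure D5:**
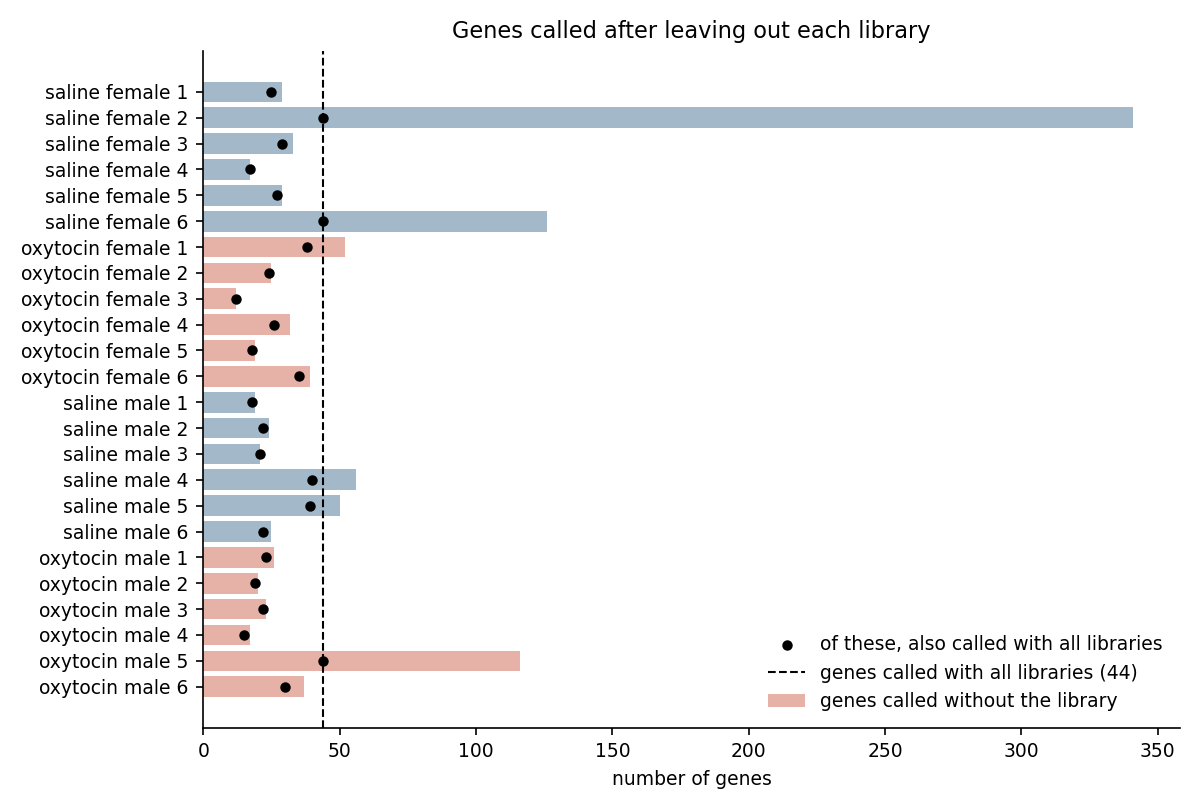
Bars give the number of genes called after leaving out the library named on the y axis, coloured by titled treatment, and points give how many of them were among the 44 called with all libraries (dashed line). The counts run from 12 without oxytocin female 3 to 341 without saline female 2.

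The signs of the fold changes held where the calls moved. All 44 genes kept their sign in every fit that left out 1 library. They were selected for their difference in these libraries, and each fit shares all but 1 of them. The kept sign is therefore a description. Of the 44, 9 were called in each of those 24 fits, and the 4 named genes were among the 9, with adjusted p at most 0.0497. Across all 37 alternative fits 3 genes were called each time, and 2 of these were ENSRNOG00000018414 and ENSRNOG00000013391. The log2 fold change of ENSRNOG00000018414 stayed between −0.35 and −0.32 and that of ENSRNOG00000013391 between 0.22 and 0.27. Other tools called more genes on the same libraries. DESeq2 called 337, with 42 of the 44 among them, limma with sample weights called 173, with 43 among them, and edgeR with a surrogate variable called 218, with all 44 among them.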

How the data were processed

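RNA of 24 libraries was sequenced. The submitters' processing notes name the tools bcl2fastq and DRAGEN and the build Rnor_6.0. For the tool versions, the annotation and the strand setting, no label or file header gives a value (not given in the sources used here). The authors deposited a table per library that lists estimated counts, TPM and lengths for 32883 Ensembl gene IDs. Estimated counts, as deposited, were rounded to whole numbers before fitting (largest shift 0.5). TPM, as deposited, served only to describe levels. The reference table (47357 rows, assembly GRCr8) paired 0 of the IDs with a name, so 23 gene lists could not be tested.

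Groups came from the titles. Members, lists and tests were chosen with earlier results of these data known. The fit used edgeR 4.0.16 (R 4.3.3) with titled sex plus treatment over all 24 libraries, with filterByExpr (minimum count 10, minimum total 15; 14930 genes kept, 17953 not tested), TMM scaling (factors 0.971 to 1.03) and robust quasi-likelihood. The biological coefficient of variation was 10.6%. The text names the called genes of smallest p, 2 per direction because no ID has a name. The length trend was examined after values had been seen. Permutation tests used 100000 resamples. Alternatives used DESeq2 1.42.0, limma 3.58.1 and sva 3.50.0. The edgeR fit and a limma fit of the kind used for the lengths were tested on simulated data, and the other steps were not. Replicates of a group differed by more than sampling noise in every pairing (lowest chi-square per degree of freedom 4.92), and each was counted as 1 replicate.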

Additional observations from a re-analysis of the deposited data

How the results depend on the processing

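The calls moved with the tool, the filter and the libraries more than with the scaling. Against 44 calls (27 higher, 17 lower, 1 at 2-fold), DESeq2 gave 337 (189, 148, 2), limma with sample weights 173 (107, 66, 6), a surrogate variable 218 (141, 77, 5) and no filter on low counts 28 (15 higher, 0 at 2-fold). Length offsets gave 26 lower calls. A filter of 1 CPM in 12 libraries gave 0 at 2-fold, and a model of 4 group means 54 calls with 2 at 2-fold. Of the alternatives chosen after seeing the data, the library total as a covariate gave 86 calls (60, 26, 2). That fit kept 32 of the 44 calls. Among the same alternatives, removal of the length trend gave 32 lower, and leaving out saline female 1 and 5 together gave 4 (3, 1, 0). Counts thinned to 15.9 M reads gave 48, and RLE size factors 46. Leaving out single libraries gave 12 to 341 calls, 8 to 227 higher, 4 to 114 lower and 0 to 5 at 2-fold.

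With the replicate number as a block 50 genes were called, 2 at 2-fold, and 39 of the 44 were among them. Same-numbered libraries of different groups had a mean correlation of 0.027, against −0.0054 for libraries of other numbers. Of the 24 libraries, 6 correlated best with their own number. Both mean correlations were small, and whether the numbers pair the libraries was not tested. The small difference on component 4 (0.187) turned to −0.908 with a prior count of 0.5. With that prior count the difference on component 1 fell from 8.19 to 1.67 (adjusted p = 0.851 in the permutation test). Those on components 2 and 3 rose to 14.9 and 11. On component 2 the adjusted p was 0.0509 with the 2000 genes of largest variance (difference 8.67). The cause of these shifts was not tested. No alternative was run for the gene lists, since no ID has a name. At 3 or fewer reads per library, 631 tested genes had at least 1 library too shallow to give a level.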
